A study of Brassica juncea with 18 samples.

Results

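The enzymes of jasmonate synthesis were followed in developing siliques of Indian mustard (*Brassica juncea*) under cold. Transcripts were chosen by the name of their best database hit, which had to be lipoxygenase, allene oxide synthase, allene oxide cyclase or oxophytodienoate reductase. The unigene c66940_g1, whose best hit carries no name, was added because the study's primer list gives its transcript c66940_g1_i1 as OPR3, and its annotated enzyme number and FMN oxidoreductase domain are those of an oxophytodienoate reductase. The set held 15 transcripts of 11 unigenes, out of 13342 transcripts of 9446 unigenes in the expression table. A unigene is a group of assembled transcripts taken as isoforms of a gene. Of the 15 transcripts, 8 from 5 unigenes were lipoxygenases (LOX), 4 from 3 unigenes were allene oxide synthase (AOS), 1 was allene oxide cyclase 1 (AOC1), and the last were OPR1 (c114942_g1_i1) and OPR3 (c66940_g1_i1). In the whole assembly of 133641 transcripts the same names matched 30 transcripts of 25 unigenes. Those named LOX1, LOX5 and LOX6 and the unnumbered lipoxygenase family proteins are outside the expression table and were not analysed here.

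Jasmonates are plant hormones made from a fatty acid of chloroplast membranes. A 13-lipoxygenase adds oxygen to the acid, AOS turns the hydroperoxide into an unstable epoxide, and AOC closes its ring to give 12-oxophytodienoic acid (OPDA), all in the chloroplast. In *Arabidopsis*, OPR3 reduces OPDA in the peroxisome, beta-oxidation shortens the product to jasmonic acid, and its isoleucine conjugate removes JAZ (TIFY) repressors, while wounding and jasmonate itself raise the transcripts of many of the same enzymes.

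Field-grown plants of *B. juncea* var. Varuna were pollinated by hand with their own pollen, and whole siliques were taken every 5 days from 5 to 30 days after pollination (DAP), while the embryo goes from the first division of the zygote to the cotyledonary stage. For cold, branches were cut, stood in water and moved to a lit chamber at 4 °C, where they stayed 6 h or 12 h. Control branches were also cut and stood in water but in the field, so cold and place differ together. The paper states that controls of the different stages were harvested on the same day. The time that control branches stood in water is not given, and 1 control serves both durations. Cold and time since cutting therefore cannot be told apart. Each stage and duration has 1 library, 18 in all, and the 6 stages serve as the replicates of a duration. The sources used here do not give the hour at which each silique was harvested, so cold and hour of day cannot be told apart for any transcript.

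The values are FPKM (fragments mapped to a transcript, divided by its length and by the mapped total of the library) that the authors had scaled by TMM. They were compared as log2(FPKM + 1) by limma with stage as a block, and a change is called here at a Benjamini-Hochberg adjusted p under 0.05 over all 13342 transcripts. All fitted differences below are on that log2 scale, which understates the change of a transcript with low FPKM, while ratios of single libraries are of FPKM itself. The expression table holds only transcripts that the study had already called between some pair of libraries, so a call is no independent evidence that a transcript responds. Summed FPKM of 28 transcripts of napin, cruciferin and oleosin ran from 2.84 in the 5 DAP control to 1390 in the 30 DAP control, and none of them was called under cold. At 30 DAP this sum was 822 FPKM at 6 h and 477 FPKM at 12 h, below its control, and its part in the enzyme values of that stage was not tested. None of the 24 pollen and anther transcripts was called either, and of 7 transcripts of the green pod 1 was higher after 6 h, and 1 was higher and 1 lower after 12 h. In whole siliques, fewer cells of a type and less RNA per cell cannot be told apart. At 5 to 20 DAP the 12 h libraries had a smaller share of reads kept in the study's read filtering than the control and 6 h libraries, and at 25 and 30 DAP all 3 libraries of a stage had such a smaller share. The 6 h libraries thus share this read class with their controls at every stage, and the 12 h libraries only at 25 and 30 DAP. The 5 DAP 6 h library held the highest value of 19.4% of all transcripts, but of none of the 15.

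After 6 h of cold, at least 1 transcript of each of the 4 enzyme steps was called higher than in control siliques. The largest fitted differences were those of AOC1 and the reductases. Whether the enzymes differ from each other in this was not tested. OPR1 rose by 2.13 (SE 0.34, n = 6 stages), AOC1 by 2.06 (SE 0.43) and OPR3 by 1.89 (SE 0.30), each at all 6 stages. An AOS transcript (c38157_g1_i1) rose by 1.03 (SE 0.30) and a LOX transcript (c72766_g2_i2) by 1.09 (SE 0.31), each at 5 of 6 stages. The AOS call and the LOX call were each lost in 7 of 15 other settings. With isoforms summed, no LOX unigene was called at 6 h. After 12 h only OPR1 was still called higher, by 1.67 (SE 0.34), and a transcript named LOX2 was lower. In all, 5 of 15 transcripts were called higher and 0 lower at 6 h, where 12.6% of all transcripts rose and 9.21% fell. At 12 h 1 was higher and 1 lower, where 10.2% of all transcripts rose and 11.2% fell. The median over the 15 transcripts was 0.885 at 6 h and -0.189 at 12 h, against -0.002 and -0.043 over all transcripts.

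**Figure D1:**
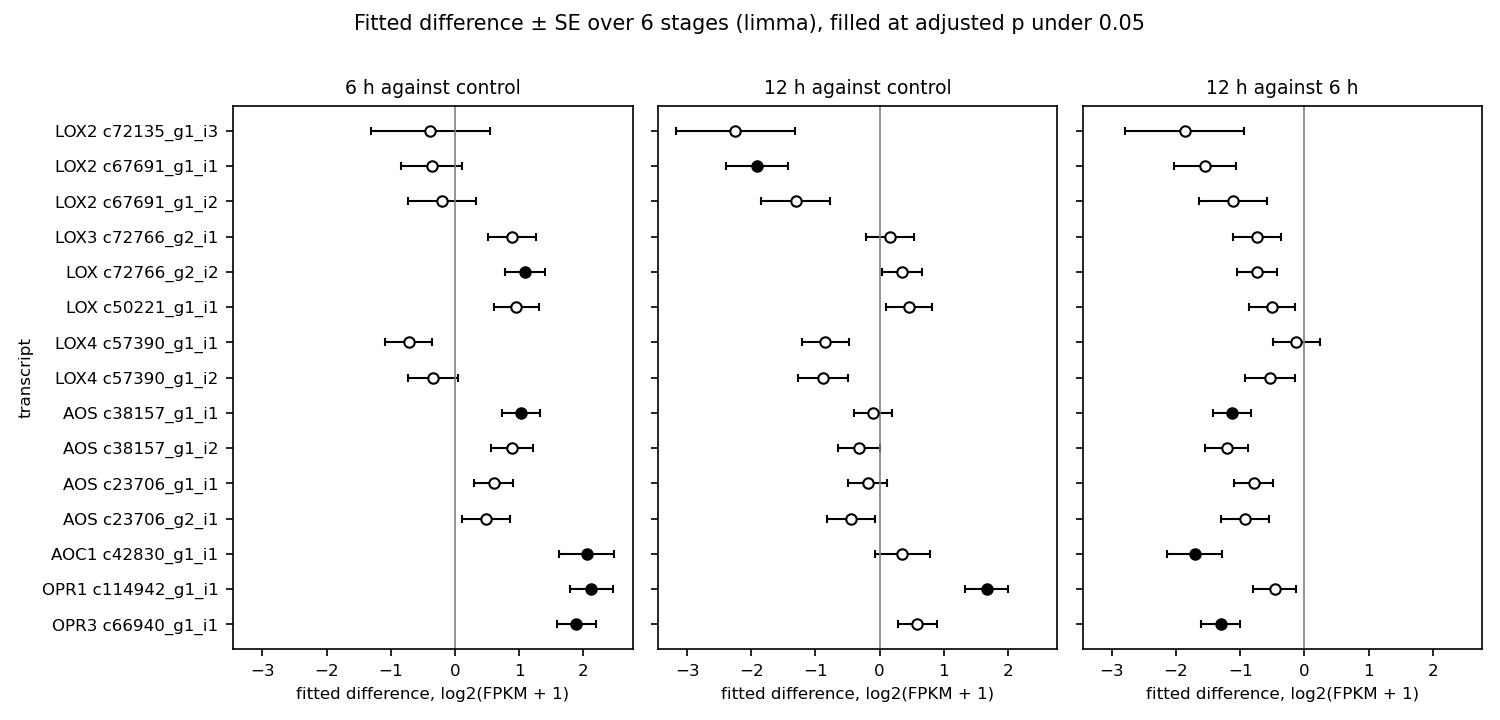
Fitted difference in log2(FPKM + 1) with its standard error for the 15 enzyme transcripts in 3 comparisons over 6 stages, ordered from LOX to OPR; filled points have a limma adjusted p under 0.05. At 6 h the filled points are LOX c72766_g2_i2, AOS c38157_g1_i1, AOC1, OPR1 and OPR3, all above 0, and at 12 h only OPR1 stays filled above 0.

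Lipoxygenases make the hydroperoxide from which the path and other branches start. The LOX3 and LOX group, c72766_g2 and c50221_g1, stood higher in the 6 h library than in control at 10, 15 and 30 DAP, while LOX2 and LOX4 did not share this order. LOX3 (c72766_g2_i1), in *Arabidopsis* a 13-lipoxygenase of the chloroplast, stood at 1.36 FPKM in the 5 DAP control, at 5.42 to 5.91 FPKM in the controls of 10, 15, 20 and 30 DAP, and at 16.7 FPKM in the 25 DAP control. At 6 h its level was 2.03, 20.9, 10.9, 6.63, 11.2 and 42.1 FPKM from 5 to 30 DAP. Control and 6 h libraries overlapped, and at 25 DAP the control was the higher of the pair. The fitted difference was 0.89 (SE 0.38, adjusted p = 0.118), higher at 5 of 6 stages, and was not called. By 12 h LOX3 was at 2.76 to 11.1 FPKM, with a difference from control of 0.16 (SE 0.38, adjusted p = 0.841).

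The second isoform of that unigene, named LOX (c72766_g2_i2), had control levels of 1.17 to 1.5 FPKM from 5 to 20 DAP and of 6.04 and 5.82 FPKM at 25 and 30 DAP. Its 6 h levels were 1.05, 10.2, 5.22, 3.21, 6.80 and 27.1 FPKM in order of stage. The libraries of 10 DAP and 30 DAP were 7.68 and 4.66 times their controls, and that of 5 DAP was just below its control. Fitted over stages, the isoform rose by 1.09 (SE 0.31, adjusted p = 0.0214). The call was lost when 10, 15 or 30 DAP was left out (0.85, 1.04 and 0.90, adjusted p = 0.0777, 0.0626 and 0.0951) and when the 10 DAP or the 30 DAP 6 h library alone was left out (0.82 and 0.90, adjusted p = 0.0609 and 0.0656). With both isoforms summed, the unigene was 0.99 above control (adjusted p = 0.068). LOX3 held between 48.2% and 81.2% of the FPKM of the unigene.

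The LOX fragment c50221_g1_i1, only 210 bases long, stayed at 0.40 to 0.58 FPKM in the controls of 5 to 20 DAP and reached 2.63 and 1.53 FPKM in those of 25 and 30 DAP. After 6 h it was at 4.88 FPKM at 10 DAP and 14.1 FPKM at 30 DAP, its highest libraries. The difference at 6 h was 0.96 (SE 0.36, adjusted p = 0.0745), and this fragment followed LOX3 over the 18 libraries (Pearson r = 0.91). Library and depth are shared by the points of this and every other correlation given here.

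LOX2, in *Arabidopsis* the 13-lipoxygenase behind most jasmonate of wounded leaves, was the most abundant of the set by control median and had the widest standard error. The transcript c72135_g1_i3 stood in control siliques at 12.4, 21.1, 142, 0.84, 237 and 311 FPKM from 5 to 30 DAP. At 6 h its levels were 18.5, 4.67, 50.7, 2.15, 430.5 and 149 FPKM, and at 12 h 6.06, 20.3, 1.15, 3.90, 88.9 and 2.53 FPKM. The groups overlapped, and the heart-stage siliques of 20 DAP had 0.84 to 3.90 FPKM at every duration. At 15 and 30 DAP the control was 124 and 123 times the 12 h library, at 25 DAP 2.67 times, and at 20 DAP the 12 h library was 4.64 times its control. Fitted over stages, the difference was -0.39 at 6 h (SE 0.92, adjusted p = 0.833) and -2.25 at 12 h (SE 0.92, adjusted p = 0.107), lower at 5 of 6 stages at 12 h and not called.

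Other isoforms of that unigene, c72135_g1_i1 and c72135_g1_i4, are named only LOX in the annotation and fell outside the name rule. The first was at 15.3 to 148 FPKM in control, 13.2 to 133 FPKM at 6 h and 10.9 to 55.0 FPKM at 12 h. Both fell at 12 h, c72135_g1_i1 by 1.05 (SE 0.29, adjusted p = 0.0174), c72135_g1_i4 by 1.07 (SE 0.32, adjusted p = 0.0273), each at all 6 stages. The isoform c72135_g1_i3 made up from 3.39% to 67.3% of the unigene's FPKM in the table, with 67.3%, 57.1% and 57.2% in the controls of 15, 25 and 30 DAP and 3.39% in that of 20 DAP. With isoforms summed, the LOX2 unigene fell by 1.52 at 12 h (adjusted p = 0.0258), a call that the single transcript c72135_g1_i3 did not reach.

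**Figure D2:**
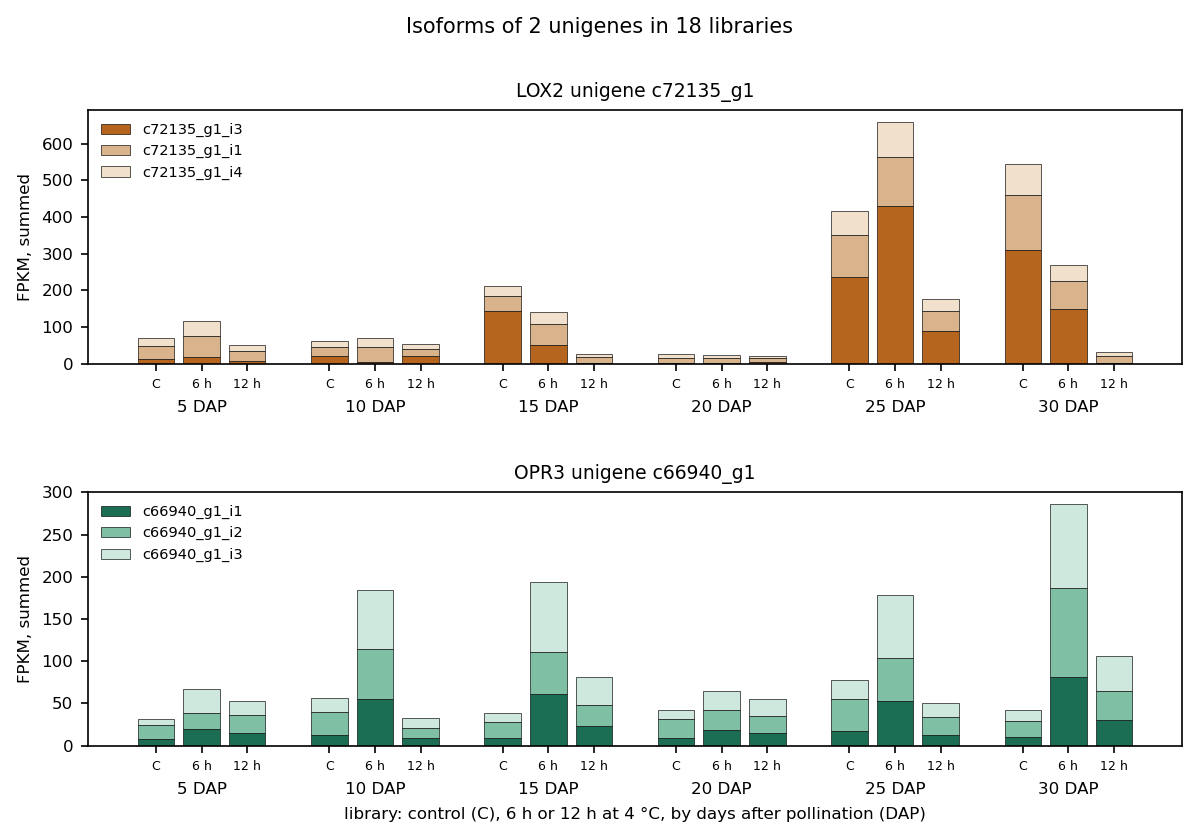
FPKM of the isoforms of the LOX2 and OPR3 unigenes, stacked, in each of 18 libraries (control, 6 h and 12 h at 4 °C for each stage). The tallest bar of the LOX2 unigene is the 25 DAP 6 h library at 659.7 FPKM, and c72135_g1_i3 makes up 57.1% to 67.3% of the controls of 15, 25 and 30 DAP but 8.14% of the unigene in the 30 DAP 12 h library, while c66940_g1_i1 keeps 21.7% to 31.3% of the OPR3 unigene in every library.

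A short LOX2 unigene, c67691_g1, has isoforms of 203 and 272 bases whose hits cover 22 residues, so its name is weak. Its isoform c67691_g1_i1 ran from 0.14 to 22.2 FPKM in control (median 5.34) and from 0 to 4.70 FPKM at 12 h (median 0.155). At 12 h it fell by 1.91 (SE 0.48, adjusted p = 0.0109), and no stage had it higher than in control. The decrease was not called when 15 DAP or 30 DAP was left out (-1.65 and -1.47, adjusted p = 0.0581 and 0.0565) or with the isoforms summed (-1.77, adjusted p = 0.0541), and it grew to -3.52 with a pseudocount of 0.1 FPKM. Its profile followed that of c72135_g1_i3 (r = 0.94 over 18 libraries). For c67691_g1_i2 the difference at 12 h was -1.31 (SE 0.53, adjusted p = 0.101).

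LOX4, a further 13-lipoxygenase of *Arabidopsis*, was low in all groups. The isoform c57390_g1_i1 had control levels of 0.22, 4.07, 1.32, 1.11, 12.9 and 2.09 FPKM from 5 to 30 DAP, against 0.53 to 2.27 FPKM at 6 h and 0 to 2.55 FPKM at 12 h. The torpedo-stage control of 25 DAP was the highest library of both LOX4 isoforms. No comparison called either, with differences at 12 h of -0.85 (SE 0.36, adjusted p = 0.123) and -0.89 (SE 0.39, adjusted p = 0.135). With isoforms summed, the unigene was called lower under cold at late stages, with a difference of -1.63 (adjusted p = 0.0467).

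**Figure D3:**
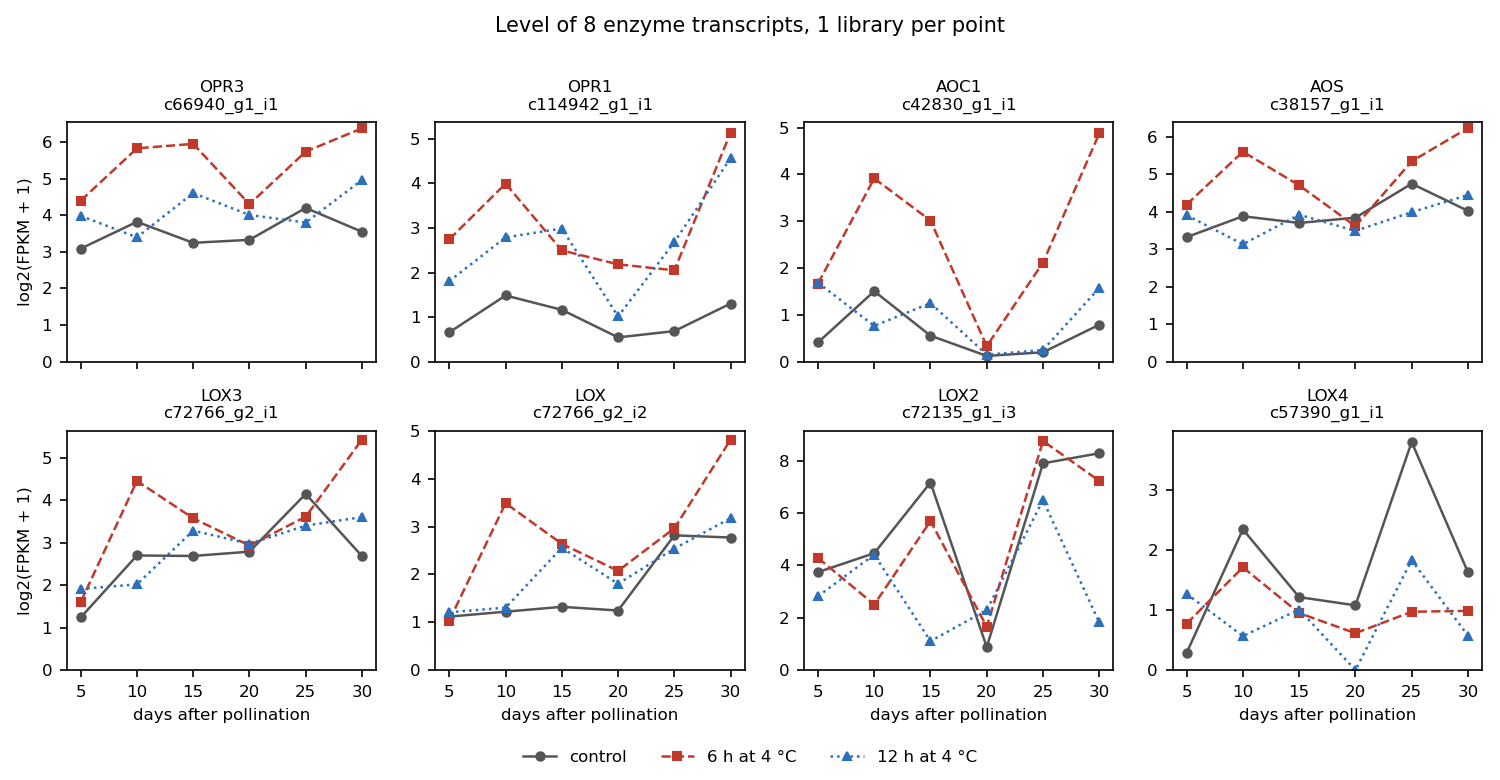
Level of 8 enzyme transcripts as log2(FPKM + 1) by days after pollination, with 1 library per point: control (circles), 6 h (squares) and 12 h (triangles) at 4 °C. For OPR3, OPR1 and AOC1 the 6 h point lies above the control point at every stage, whereas LOX2 and LOX4 move with stage and show no such order.

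AOS, a cytochrome P450 that needs no outside oxygen, is a single gene in *Arabidopsis* and appeared here as a full-length unigene, c38157_g1, and as 2 short unigenes. The transcript c38157_g1_i1 stood at 9.01, 13.7, 12.0, 13.4, 25.9 and 15.3 FPKM in control siliques from 5 to 30 DAP. After 6 h its levels were 17.3, 47.6, 25.1, 11.3, 39.7 and 74.2 FPKM. The 6 h library was higher at 5 stages and lower only at 20 DAP, and the groups overlapped. Over stages AOS rose by 1.03 after 6 h (SE 0.30, adjusted p = 0.0227), and the summed unigene by 0.99 (adjusted p = 0.0358). The call of the transcript was lost without 5, 10, 15 or 30 DAP (1.06, 0.89, 1.03 and 0.79, adjusted p = 0.0532, 0.0667, 0.0682 and 0.108) and without the 10 DAP or the 30 DAP 6 h library (0.83 and 0.85, adjusted p = 0.0731 and 0.0689).

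By 12 h that AOS transcript had levels of 14.0, 7.78, 14.2, 10.3, 14.9 and 20.8 FPKM, of which only 10 DAP lay below the lowest control, and the difference from control was -0.11 (SE 0.30, adjusted p = 0.872). The isoform c38157_g1_i2 ran alongside it (r = 0.96 over 18 libraries) at 8.36 to 16.9 FPKM in control and 7.25 to 61.9 FPKM at 6 h, and its difference of 0.89 at 6 h was not called (SE 0.33, adjusted p = 0.0751). The short unigenes c23706_g1 and c23706_g2, of 363 and 235 bases, had control medians of 4.50 and 5.17 FPKM and reached 24.6 and 31.3 FPKM in the 30 DAP 6 h library. Neither was called at 6 h (0.60 and 0.49, adjusted p = 0.206 and 0.439). Reads of near-identical AOS copies, which the allotetraploid *B. juncea* may carry, can be split among these transcripts, so their separate levels are uncertain.

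AOC sets the stereochemistry of OPDA. AOC1 (c42830_g1_i1, a fragment of 329 bases) was nearly silent in control siliques, with 0.33, 1.84, 0.47, 0.09, 0.15 and 0.73 FPKM from 5 to 30 DAP. After 6 h it was at 2.18, 14.1, 7.08, 0.26, 3.34 and 28.3 FPKM. Every 6 h library exceeded its own control, by 2.89 times at 20 DAP and by 6.61 to 38.8 times elsewhere, although the 20 DAP 6 h library lies within the span of the controls. The fitted rise of 2.06 (SE 0.43) had an adjusted p of 0.00307, and with a pseudocount of 0.1 FPKM it was 3.12. After 12 h AOC1 was back at 0.11 to 2.22 FPKM, 0.35 above control (SE 0.43, adjusted p = 0.653).

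A far more abundant cyclase is in the table under another spelling, "allene oxidase cyclase" (c60767_g2_i1, 1380 bases), and so fell outside the name rule. Its control levels were 23.3, 70.9, 69.3, 76.3, 101.3 and 38.3 FPKM, and its 6 h levels 44.5, 219, 145, 109, 178 and 276 FPKM in the same order. It was higher at 6 of 6 stages and was called, with a rise of 1.28 at 6 h (SE 0.34, adjusted p = 0.0139). At 12 h it was 0.09 above control (SE 0.34, adjusted p = 0.914).

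The reductases were called in more comparisons than the other enzymes. OPR3 is the OPDA reductase of jasmonate synthesis in *Arabidopsis*, where plants without it have sterile pollen. OPR3 (c66940_g1_i1, 2186 bases) stood in control siliques at 7.50, 13.1, 8.49, 9.04, 17.4 and 10.7 FPKM from 5 to 30 DAP. After 6 h it was at 20.0, 55.7, 60.7, 18.7, 52.3 and 81.8 FPKM. For this isoform the lowest 6 h library, 20 DAP, was above the highest control, 25 DAP, so its groups did not overlap. The ratio to the control of the stage was 2.67, 4.25, 7.15, 2.07, 3.01 and 7.64. The rise of 1.89 had an adjusted p of 0.000414 and was called in all 15 other settings that were run, between 1.60 and 2.08.

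At 12 h OPR3 was at 14.8, 9.53, 23.3, 15.1, 12.9 and 30.1 FPKM, above control at 4 stages and below it at 10 and 25 DAP. The difference from control was then 0.59 (SE 0.30, adjusted p = 0.201). The isoforms of c66940_g1 that lack the OPR3 name behaved alike in part. The isoform c66940_g1_i3 rose by 2.0 (SE 0.31, adjusted p = 0.000321) after 6 h, from 7.33 to 23.3 FPKM in control to 22.0 to 99.2 FPKM, while for c66940_g1_i2 the difference was 0.94 (SE 0.32, adjusted p = 0.0513). With the isoforms summed, the OPR3 unigene rose by 1.60 at 6 h (adjusted p = 0.002). Its summed levels ran from 31.6 to 78.1 FPKM in control and from 64.6 to 286 FPKM at 6 h, so these groups overlapped.

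OPR1, in *Arabidopsis* a cytosolic reductase that has little activity on the natural OPDA isomer, was scarce in control siliques. The fragment c114942_g1_i1, of 247 bases, had 0.58, 1.80, 1.24, 0.46, 0.61 and 1.47 FPKM in the controls. After 6 h its levels were 5.70, 14.9, 4.64, 3.54, 3.14 and 34.2 FPKM, and after 12 h 2.5, 5.91, 6.92, 1.02, 5.43 and 22.7 FPKM. The 6 h group lay wholly above the controls, whereas at 12 h the 20 DAP library fell among them while still exceeding its own control. The ratio of 6 h to control ran from 3.74 at 15 DAP to 23.3 at 30 DAP, and that of 12 h to control from 2.22 at 20 DAP to 15.4 at 30 DAP. OPR1 rose by 2.13 after 6 h (adjusted p = 0.000402) and by 1.67 after 12 h (adjusted p = 0.00264). The 6 h call held in all 15 other settings, between 1.78 and 2.87, and the 12 h call in 14 of 15, the exception being the fit without the stage block (adjusted p = 0.0681).

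**Figure D4:**
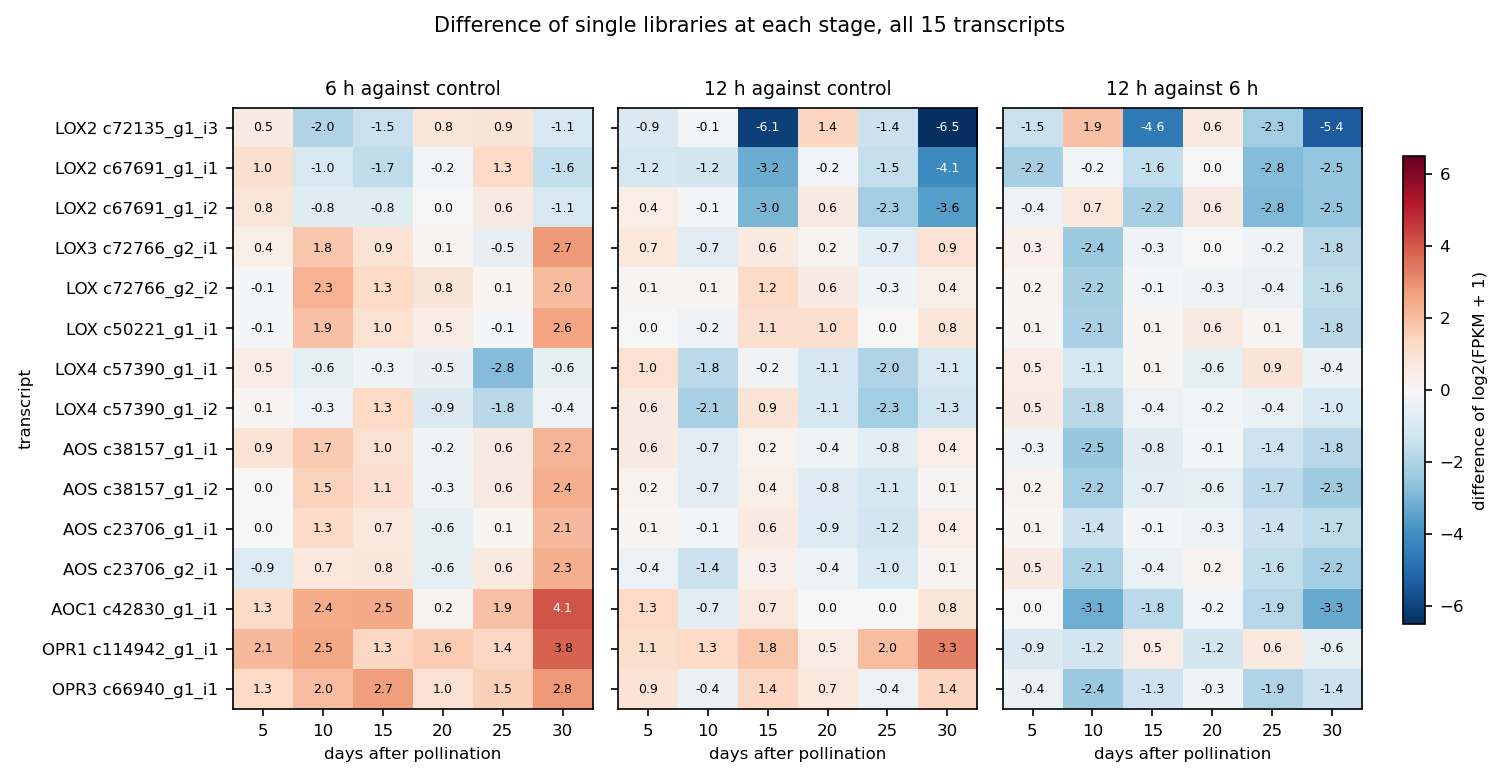
Difference of log2(FPKM + 1) between single libraries at each stage for the 15 enzyme transcripts, red for higher and blue for lower, with no test. At 6 h the reds of AOC1, OPR1 and OPR3 run across all stages and deepen at 30 DAP, and in the 12 h against 6 h panel 12 of 15 transcripts are at least 2-fold lower at 10 DAP and 12 of 15 at 30 DAP.

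The differences at 6 h were also read stage by stage, on 1 library each and without a test of any difference between stages. Of the 15 transcripts, 4, 9, 8, 1, 4 and 10 were at least 2-fold higher at 6 h than in control in order of stage from 5 to 30 DAP, on the log2(FPKM + 1) scale. The share of all transcripts at the same stages was 22.1%, 11.9%, 10.6%, 10.6%, 9.14% and 10.7%. The share of the enzymes was above that of all transcripts at 10, 15, 25 and 30 DAP. At 5 DAP it was close to that of all transcripts (4 of 15 against 22.1%). At 20 DAP it was below, and OPR1 was the single transcript to pass. Some of the 15 are isoforms of the same unigene, so they are not separate cases. The 30 DAP 6 h library held the highest value of 10 of the 15, among them all AOS transcripts, AOC1, OPR1 and OPR3, against 8.44% of all transcripts. The LOX2 transcripts peaked in the 25 DAP 6 h library and those of LOX4 in the 25 DAP control.

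Between 6 h and 12 h of cold 3 enzyme transcripts were called lower, of OPR3, AOS and AOC1. The direct contrast asked whether the levels at 12 h differed from those at 6 h. OPR3 fell by 1.30 (SE 0.30, adjusted p = 0.0225) and AOS c38157_g1_i1 by 1.13 (SE 0.30, adjusted p = 0.044), each at 6 of 6 stages, and AOC1 fell by 1.71 (SE 0.43, adjusted p = 0.0358), at 5 of 6 stages. In all 3 of the 15 fell and 0 rose, where 3.62% of all transcripts fell and 1.29% rose. OPR1 differed by -0.46 (SE 0.34, adjusted p = 0.619), lower at 4 stages and higher at 15 and 25 DAP. The median of the 15 transcripts was -0.929, against -0.045 over all transcripts.

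On single libraries, 2, 12, 5, 1, 9 and 12 of the 15 transcripts were at least 2-fold lower at 12 h than at 6 h from 5 to 30 DAP. For all transcripts the shares were 20.3%, 6.95%, 4.77%, 7.78%, 8.24% and 4.92%. At 25 and 30 DAP, where both durations are of the same read class, OPR3 went from 52.3 to 12.9 FPKM and from 81.8 to 30.1 FPKM, AOC1 from 3.34 to 0.19 FPKM and from 28.3 to 1.98 FPKM, and AOS from 39.7 to 14.9 FPKM and from 74.2 to 20.8 FPKM. All 3 calls were lost with read class as a term (-1.53, -2.11 and -1.38 for OPR3, AOC1 and AOS, adjusted p = 0.194, 0.212 and 0.252), which takes its difference mainly from those stages, and when 10, 15, 25 or 30 DAP was left out, with an adjusted p of at most 0.194 and differences of -0.87 to -1.70. That of AOS was also lost without 5 DAP (-1.30, adjusted p = 0.0683) or the 5 DAP 6 h library (-1.23, adjusted p = 0.0663). All 3 were further lost without the 10 DAP 6 h library (-1.18, -1.53 and -0.93 in the same order) and without the 30 DAP 6 h library (-1.20, -1.35 and -0.95).

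By clustering of its RNA-seq values, the study had placed OPR1 among transcripts induced by cold early in development and OPR3 among those induced late. Its qPCR of OPR3 is separate evidence and is not reported here. Because of this placement, the cold effect was also fitted by phase, with 6 h and 12 h averaged. At early stages (5, 10 and 15 DAP) OPR1 rose by 1.70 (SE 0.44, adjusted p = 0.0196) and OPR3 by 1.31 (SE 0.40, adjusted p = 0.0414). At late stages (20, 25 and 30 DAP) OPR1 rose by 2.09 (SE 0.44, adjusted p = 0.00886), and OPR3 had a difference of 1.17 (SE 0.40, adjusted p = 0.0799). The early and late effects themselves differed by 0.39 for OPR1 (SE 0.62, adjusted p = 0.976) and by -0.14 for OPR3 (SE 0.56, adjusted p = 0.983), which leaves room for a difference of either sign. Of the 15 transcripts 2 rose at early and 1 at late stages and 0 fell at either, where 10.6% and 7.7% of all transcripts rose and 7.44% and 5.55% fell. For the difference between phases limma called 0 transcripts of the table, 0% higher and 0% lower. Of the 15 only LOX4 c57390_g1_i2 had an unadjusted p under 0.05 in limma (-1.38, SE 0.62). So did 748 of all transcripts (5.6%), a share close to 1 of 15.

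These phase calls depended on single stages and on settings. At early stages the call of OPR1 was lost without 5, 10 or 15 DAP (1.74, 1.60 and 1.76, adjusted p = 0.119, 0.134 and 0.0705) and without the 5 DAP or the 10 DAP 6 h library (1.64 and 1.55). That of OPR3 was lost in the same leave-outs of a stage (1.41, 1.56 and 0.95, adjusted p = 0.114, 0.0667 and 0.303) and without the 10 DAP 6 h library (1.18). It was also lost with isoforms summed (1.02, adjusted p = 0.129), a pseudocount of 0.1 FPKM (1.38, adjusted p = 0.0538), median ratio rescaling (1.25, adjusted p = 0.0519) and read class as a term (0.92, adjusted p = 0.469), so that the OPR3 unigene as a whole was called in neither phase. At late stages the call of OPR1 was lost without 30 DAP, where the difference dropped to 1.37 (adjusted p = 0.0962).

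Without cold, no enzyme transcript was called different between late and early control siliques, with 3 libraries a side. Of the 15, 0 were called, where 4.01% of all transcripts were higher and 0.6% lower at late stages. At an unadjusted p under 0.05 in limma 0 of the 15 passed, where 25.7% of all transcripts did in either direction. The closest was LOX c72766_g2_i2, at 1.06 (SE 0.47, adjusted p = 0.23), which was called without 20 DAP (1.57, adjusted p = 0.0498). OPR3 had a difference of 0.31 (SE 0.33), AOS c38157_g1_i1 of 0.57 (SE 0.31) and LOX2 c72135_g1_i3 of 0.56 (SE 2.24), the last with a spread that hides differences of many fold. By control median of single transcripts the order per length was LOX2 c72135_g1_i3 at 81.8 FPKM, AOS c38157_g1_i1 at 13.5 FPKM, OPR3 at 9.87 FPKM, LOX3 at 5.47 FPKM, OPR1 at 0.925 FPKM and AOC1 at 0.40 FPKM. With isoforms summed OPR3 stood above AOS, at a control median of 42.2 FPKM (31.6 to 78.1) against 23.3 FPKM (17.5 to 42.8). As single transcripts, AOS and OPR3, and OPR1 and AOC1, overlapped in their control ranges. LOX2 c72135_g1_i3 overlapped with AOS and OPR3 through its 5 DAP control (12.4 FPKM). With OPR1 and AOC1 it overlapped through its 20 DAP control (0.84 FPKM).

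The other steps of the path were followed in lists made from the annotation. OPCL1 (c64350_g1_i2) activates the OPDA product for beta-oxidation in the peroxisome and was the only transcript of its list in the table. It stood at 5.81, 12.1, 8.67, 7.22, 13.5 and 9.52 FPKM in control and at 14.3, 45.7, 42.9, 19.4, 39.7 and 57.0 FPKM at 6 h. All 6 h libraries were above all controls. OPCL1 rose by 1.74 after 6 h (SE 0.23, adjusted p = 8.92e-05) and by 0.70 after 12 h (SE 0.23, adjusted p = 0.0419), and fell by 1.04 from 6 h to 12 h (SE 0.23, adjusted p = 0.018). Ahead of the path, DAD1-type lipases release the fatty acid in *Arabidopsis*. Of their 3 transcripts 0 were called at 6 h, where 12.6% of all transcripts rose and 9.21% fell. A DAD1-like acylhydrolase (c70762_g2_i1) had a difference of -0.66 at 6 h (SE 0.23, adjusted p = 0.054). After 12 h it fell by 0.80 (SE 0.23, adjusted p = 0.0217), the 1 of 3 called lower, where 11.2% of all transcripts fell.

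Hydroperoxide lyase (c65899_g1_i1) draws on the same hydroperoxide as AOS and yields volatile aldehydes. It was at 26.7 to 61.5 FPKM in control, 29.8 to 112 FPKM at 6 h and 12.6 to 37.8 FPKM at 12 h. At 6 h the difference was 0.71 (SE 0.25, adjusted p = 0.058), and at 12 h it fell by 0.88 below control (SE 0.25, adjusted p = 0.0211), lower at 6 of 6 stages. From 6 h to 12 h it fell by 1.60 (SE 0.25, adjusted p = 0.0016). The lyase and AOS were both called lower at 12 h than at 6 h, and only the lyase was called below control, a contrast between the 2 transcripts that was not tested.

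**Figure D5:**
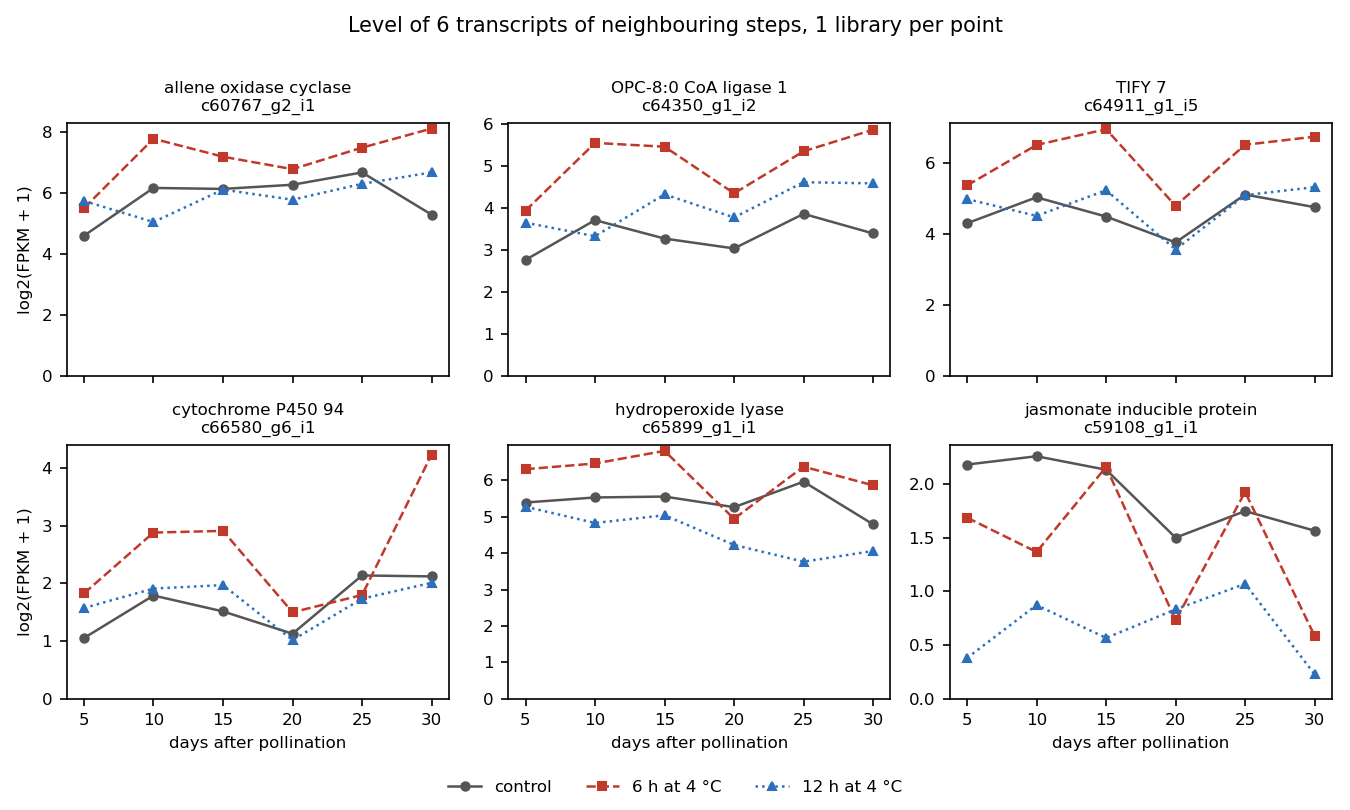
Level of 6 transcripts of neighbouring steps as log2(FPKM + 1) by days after pollination, with 1 library per point: control (circles), 6 h (squares) and 12 h (triangles) at 4 °C. The 6 h points of allene oxidase cyclase, OPC-8:0 CoA ligase 1 and TIFY 7 lie above their controls at 6 of 6 stages, and the 12 h points of hydroperoxide lyase and of the jasmonate inducible protein lie below theirs at 6 of 6.

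Downstream of synthesis, most repressor transcripts were called higher at 6 h and no response transcript was. Of 8 JAZ (TIFY) transcripts 6, from 3 unigenes, rose at 6 h, where 12.6% of all transcripts did. From 6 h to 12 h 6 of the 8, from 4 unigenes, fell, against 3.62% of all, and their median difference at 6 h was 1.21, against -0.002 over all transcripts. TIFY 7 (c64911_g1_i5) went from 12.6 to 33.5 FPKM in control to 26.7 to 122 FPKM at 6 h. At 12 h 1 of the 8 was called higher than control and 1 lower (12.5% each, against 10.2% and 11.2% of all transcripts). TIFY 11B (c65085_g2_i4) rose by 0.60 (SE 0.17, adjusted p = 0.0196), and TIFY 9 (c61328_g1_i2) fell by 0.78 (SE 0.16, adjusted p = 0.00333). With isoforms summed, and each transcript given the value of its unigene, these counts became 3 and 1. Of 9 transcripts that conjugate, methylate or oxidise jasmonate, 1 rose at 6 h, a share (11.1%) close to that of all transcripts (12.6%). It was a cytochrome P450 of family 94 (c66580_g6_i1) whose relatives in *Arabidopsis* oxidise the isoleucine conjugate, and its rise was 0.90 (SE 0.26, adjusted p = 0.0239), from 1.07 to 3.39 FPKM in control to 1.82 to 17.8 FPKM.

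Of 17 transcripts named for jasmonate response, vegetative storage proteins, thionins and jasmonate inducible proteins, 1 was called lower after 6 h, 5 after 12 h and 0 higher at either, with medians of -0.324 and -0.58. The share called lower was 5.88% after 6 h, below the 9.21% of all transcripts, and 29.4% after 12 h, against 11.2% of all. At an unadjusted p under 0.05 in limma 0 of the 17 were higher and 2 and 9 lower, where 31.1% and 32.2% of all transcripts passed in either direction. The jasmonate inducible protein c59108_g1_i1 went from 1.83 to 3.79 FPKM in control to 0.17 to 1.10 FPKM at 12 h and fell by 1.24 (SE 0.21, adjusted p = 0.000777). A thionin precursor (c30247_g1_i1), a small antimicrobial peptide, was at 39.6 to 355 FPKM in control and fell by 1.39 after 12 h (SE 0.34, adjusted p = 0.00914). The best hits of the inducible proteins carry this name in the annotation, and no jasmonate was measured.

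Transcripts that share a domain or enzyme number with the set under another name numbered 11, of which 2 were higher and 2 lower after 6 h and 4 lower after 12 h (18.2%, 18.2% and 36.4%, against 12.6%, 9.21% and 11.2% of all transcripts). With isoforms summed these counts became 3, 1 and 2. Besides the cyclase and the isoforms given above, c65473_g1_i2 and c65231_g1_i1, whose best hits are hypothetical proteins, fell at 12 h by 1.55 (SE 0.25, adjusted p = 0.000568) and by 1.33 (SE 0.29, adjusted p = 0.0044). Among 241 transcripts that carry the GO term for jasmonic acid biosynthesis and are outside the set, 49 were higher and 10 lower after 6 h, and 24 higher and 26 lower after 12 h. After 6 h this is 20.3% higher and 4.15% lower, against 12.6% and 9.21% of all transcripts, and the shares after 12 h (9.96% and 10.8%) were close to those of all (10.2% and 11.2%). That term covers 156 unigenes and thus many that are not enzymes of the path, and its median at 6 h was 0.209.

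Profiles were compared over the 18 libraries by Pearson correlation of log2(FPKM + 1), as a description. The transcripts of other unigenes most like OPR3 were OPCL1 (r = 0.96), a pair of protein kinase-like isoforms (c72802_g1_i6 and c72802_g1_i9, r = 0.94 and 0.92), a myrosinase binding protein (c64755_g2_i1, r = 0.91) and TIFY 7 (c64911_g1_i5, r = 0.90). Those most like OPR1 were ABR1, an ethylene-responsive transcription factor (c74620_g1_i1, r = 0.92, and c148301_g1_i1, r = 0.84), a steroid dehydrogenase family protein (c67925_g1_i5, r = 0.88), inositol-tetrakisphosphate 1-kinase 3 (c69943_g1_i2, r = 0.84) and a cytochrome P450 of family 72 (c71509_g5_i1, r = 0.84). The lists did not share a transcript. Within the set OPR3 correlated with AOS c38157_g1_i1 at r = 0.88, with AOC1 at 0.86, with LOX3 at 0.75 and with OPR1 at 0.71, but with LOX2 c72135_g1_i3 at 0.15.

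LOX2 had neighbours of another kind, looked up after its values had been seen. Those most like c72135_g1_i3 were a Kunitz trypsin inhibitor (c62966_g1_i1, r = 0.99), jacalin-related lectins 22 and 23 (c71246_g1_i6 and c71246_g1_i10, r = 0.96 and 0.92) and a polygalacturonase inhibitory protein (c59611_g1_i1, r = 0.94), beside the short LOX2 transcript c67691_g1_i1. Trypsin inhibitors and polygalacturonase inhibitors are known as defence proteins against insects and fungi.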

How the data were processed

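RNA-seq libraries (TruSeq kit, Illumina HiSeq) were made from whole siliques, 1 for each of 6 stages and 3 durations. After filtering (NGS QC Toolkit), the authors built a Trinity assembly, mapped reads to it (Bowtie2), ran RSEM for abundance and deposited FPKM values normalized by TMM, with 2 decimals. The depth of each library is not in these files, so no counting interval is given. The study's read table lists 10 DAP 12 h as the shallowest and 25 DAP 12 h as the deepest library. The deposited annotation, made with FastAnnotator, gives best hits, GO terms, enzymes and domains. The submitters' processing notes name RSEM and edgeR, whose versions are not given in the sources here.

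Groups came from the labels. FPKM was taken to log2(FPKM + 1) without a filter and fitted with limma 3.58.1 in R 4.3.3, with stage as a block, over all 13342 transcripts, with Benjamini-Hochberg adjustment. The phase fit nested cold in early and late stages, and late and early controls were compared on 6 libraries. The fits were tested on simulated data. Python 3.11.15 with pandas 2.3.3, numpy 2.4.6 and matplotlib 3.10.9 was used for counts and plots.

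The members, gene lists and tests were chosen with earlier results of these data known. The pattern for thionins and for TIFY proteins was corrected after the files had been seen, because it also matched methionine and rectifying. All members were described, with up to 4 called transcripts of each other list having the smallest p (1 per unigene) available for naming, and the 5 most correlated named transcripts of other unigenes with a mean of at least 1 FPKM. Alternatives were a pseudocount of 0.1, a mean of at least 1 FPKM, median ratio rescaling, isoforms summed per unigene, no stage block, read class as a term, stage means in place of control libraries for development, and leaving out each stage or the 5 DAP 6 h library. Leaving out the 10 DAP or the 30 DAP 6 h library was added after seeing the data. The primer sequences were not used here.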

Additional observations from a re-analysis of the deposited data

Results flagged for a closer look

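In 15 of 45 groups (15 transcripts in 3 durations) the highest library stood apart from the other 5 by Dixon's criterion, applied to FPKM without the log. Its rate of about 1 in 20 by chance holds for normally distributed values, which was not checked here. The count is therefore not read as an excess. Each group mixes 6 stages, so a stage that differs from the others counts as such a library. The causes were not tested.

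The LOX2 libraries that stood apart were those of 25 DAP under cold. In control siliques c72135_g1_i3, c67691_g1_i1 and c67691_g1_i2 were highest at 30 DAP, at 310.67, 22.21 and 14.95 FPKM, and none was flagged. The transcript c72135_g1_i3 had 430.48 FPKM at 6 h and 88.88 FPKM at 12 h, c67691_g1_i1 had 39.35 FPKM at 6 h and 4.7 FPKM at 12 h, and c67691_g1_i2 had 22.33 FPKM at 6 h. The 25 DAP control was the high library of 4 other transcripts. It had 16.72 FPKM for LOX3 c72766_g2_i1, 12.88 FPKM for LOX4 c57390_g1_i1, 25.88 FPKM for AOS c38157_g1_i1 and 16.93 FPKM for AOS c38157_g1_i2.

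The 30 DAP 6 h library was high for 3 transcripts, at 14.06 FPKM for LOX c50221_g1_i1, 27.14 FPKM for LOX c72766_g2_i2 and 31.33 FPKM for AOS c23706_g2_i1. OPR1 had 22.69 FPKM in the 30 DAP 12 h library. At 10 DAP the control stood apart for AOC1, at 1.84 FPKM, and the 6 h library for LOX4 c57390_g1_i1, at 2.27 FPKM.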

How the results depend on the processing

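No result changed direction while called. Of the values of single transcripts, 1354 kept their side of the threshold with their sign, 79 changed sign while called in neither fit, 65 lost a call and 17 gained one. The calls of OPR1, OPR3 and AOC1 at 6 h held in all 15 other settings. The count of transcripts higher at 6 h was 5 and became 3 without the stage block, without the 10 DAP 6 h library and without the 30 DAP 6 h library, and 3 to 6 with a stage left out. At 12 h the count higher, 1, became 0 without the stage block, and the count lower, 1, became 0 without the stage block, 2 with read class as a term and 0 to 2 with a stage left out. From 6 h to 12 h the count lower, 3, became 1 with median ratio rescaling, 0 without the stage block, with read class as a term and without either of the 10 DAP and 30 DAP 6 h libraries, and 0 to 3 with a stage left out. At early stages the count higher, 2, became 1 with a pseudocount of 0.1, median ratio rescaling, isoforms summed, read class as a term or without the 5 DAP 6 h library, 0 without the stage block or the 10 DAP 6 h library, and 0 to 2 with a stage left out. At late stages the count higher, 1, became 0 without the stage block and 0 to 1 with a stage left out, and the count lower, 0, became 1 with the filter on the mean, 2 with isoforms summed (both LOX4 isoforms, as 1 unigene) and 0 to 1 with a stage left out. Late against early control siliques gave 0 to 1 higher with a stage left out. With read class as a term the calls between 6 h and 12 h were lost, while their differences grew. The early-stage call of OPR3 was also lost, and its difference shrank to 0.92. The cause was not tested. The stage block pairs the libraries of a stage, and the fit without it is given above. With 1 library per stage and duration, depth and stage-specific responses cannot be separated, and transcripts near 0 FPKM rest on few reads.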
